A study of Mus musculus with 12 samples.

Results

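The genes described here are those that start within 20 Mb of Neil1 on mouse chromosome 9, between 37142788 and 77142788 in the GRCm38 build. Neil1 itself lies at 57142788 to 57148688 (NCBI gene 72774). Of 18558 genes in the count table, 406 start in this window, and 25 of them, including Neil1, were left out by the rule that defined the set, which leaves 381 members. Of these, 377 are protein coding. The test across all genes could be run on 288 members, and the other 93 had too few counts, with a highest mean level of 0.373 CPM (counts scaled to the library's total); all 20 olfactory receptor genes of the set were among them. RNA came from the pyramidal layer of the hippocampal CA1 field, cut from brain sections 8 µm thick by laser microdissection, from untreated male mice on the C57BL/6 N background, aged 3 to 6 months. The groups were wild type (WT, n = 3), Neil1-/- (n = 2), Neil2-/- (n = 3) and Neil1-/-Neil2-/- (n = 2), with 1 library each from 10 mice; 2 further libraries have a title of one NEIL1-deficient genotype and a genotype label of the other, and entered no comparison. The study itself left out 2 samples as outliers and so also compared 2 Neil1-/- and 2 Neil1-/-Neil2-/- mice. Its text does not name those samples, so the libraries compared here may include them. The 3 mutant lines were bred apart from each other after backcrossing, so that genotype and breeding line cannot be told apart.

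NEIL1 and NEIL2 are DNA glycosylases, enzymes that start base excision repair by removing oxidized bases from DNA. An allele made by gene targeting is inherited together with the stretch of chromosome around it until recombination separates them, and it is therefore usual to look at the neighbours of a targeted gene on their own. The study searched DNA of the mutants for sequence left from the strain in which the alleles were made; those data were not analysed here, and counts per gene do not show which alleles lay around Neil1. A level measured in a dissected layer is a sum over cells, so that fewer cells of a type and less RNA per cell cannot be told apart.

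The label check came first. Neil1 had 69, 61 and 95 counts in the WT libraries and 84, 81 and 82 in Neil2-/-, against 161 and 119 in the libraries labelled Neil1-/- and 134 and 146 in those labelled Neil1-/-Neil2-/-. Neil1 counts were thus higher, not lower, in all 4 libraries labelled as NEIL1-deficient (log2 fold change 0.86, SE 0.141, adjusted p = 0.0192), and the counts per gene do not show which part of the transcript they came from, so that they do not check the label. Neil2 had 0 counts in all 5 libraries labelled Neil2-/- or Neil1-/-Neil2-/- and 5 in each WT library. Genotypes below are those of the labels. The 10 libraries held 19618923 to 21970180 counts. Summed CA1 pyramidal markers lay between 6590 and 8340 CPM in the 10 libraries, and 0 of the 8 passed the test for NEIL1 loss (0 at an unadjusted p under 0.05). Markers of some other cells, but not of all, stood higher in the double knockout. The 8 oligodendrocyte markers summed to 510 to 602 CPM in WT, 497 to 671 in Neil1-/-, 493 to 556 in Neil2-/- and 676 to 1240 in Neil1-/-Neil2-/-, where replicate 1 had the highest value. All 8 had an unadjusted p under 0.05 for NEIL1 loss with 0 called. The 6 astrocyte markers summed to 248 to 285 CPM in WT, 277 to 348 in Neil1-/-, 216 to 284 in Neil2-/- and 297 to 426 in Neil1-/-Neil2-/-. The 7 markers of thalamus and striatum had the highest median log2 fold change of the 9 marker lists for NEIL1 loss, 1.43, with 5 at an unadjusted p under 0.05 and 0 called, and 2 of them were called in Neil1-/-Neil2-/- against WT. Their sum was 119 to 189 CPM in WT, 126 to 210 in Neil1-/-, at least 191 in Neil2-/- and 207 to 248 in Neil1-/-Neil2-/-. Choroid plexus and ependyma markers summed to 57.5 to 174 CPM in WT and 130 to 301 in Neil1-/-Neil2-/- (0 of 4 tested at an unadjusted p under 0.05), and blood markers to 52.5 to 78.6 and 77.8 to 191 (2 of 3). The microglia, interneuron and endothelial lists had median log2 fold changes of 0.155, 0.04 and 0.0791 for NEIL1 loss. Each had 0 markers at an unadjusted p under 0.05. The part of any of these cells in the results for members was not tested.

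The promoters of 4 members are shown because these genes stand for the 4 kinds of result below: a gene close to absent in WT, a gene of the cilium, a gene that fell and the called gene that rose on the other side of Neil1. Each is the 250 bases before the transcription start that the RefSeq table (GRCm38.p6) gives for the gene. For Treh and Alg9 this is also the start of the gene model used for distances, whereas the Ift46 window lies inside that model and the Neo1 window partly inside it. Capitals mark matches on either strand. The GC box was searched as GGGCGG. The box named after its own letters was searched as CCAAT, in all promoters of the table alike. The TATA box was searched as TATAAA. Treh is at chr9:44672983-44673232 on the plus strand, Ift46 at chr9:44772759-44773008 on the plus strand, Alg9 at chr9:50774975-50775224 on the plus strand and Neo1 at chr9:59036442-59036691 on the minus strand.
Treh: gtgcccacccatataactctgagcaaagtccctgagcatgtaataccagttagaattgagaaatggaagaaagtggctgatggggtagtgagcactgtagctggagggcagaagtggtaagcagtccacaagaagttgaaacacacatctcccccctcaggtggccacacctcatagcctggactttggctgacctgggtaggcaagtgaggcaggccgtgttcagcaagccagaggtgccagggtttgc
Ift46: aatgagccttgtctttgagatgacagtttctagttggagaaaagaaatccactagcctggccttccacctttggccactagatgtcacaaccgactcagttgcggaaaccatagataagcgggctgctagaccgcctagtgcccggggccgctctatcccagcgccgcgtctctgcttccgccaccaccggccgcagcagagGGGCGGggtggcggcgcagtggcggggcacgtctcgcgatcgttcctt
Alg9: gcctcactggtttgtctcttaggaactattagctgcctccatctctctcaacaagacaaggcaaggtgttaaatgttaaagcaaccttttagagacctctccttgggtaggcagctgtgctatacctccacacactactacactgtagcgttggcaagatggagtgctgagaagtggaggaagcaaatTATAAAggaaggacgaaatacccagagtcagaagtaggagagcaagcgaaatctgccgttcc
Neo1: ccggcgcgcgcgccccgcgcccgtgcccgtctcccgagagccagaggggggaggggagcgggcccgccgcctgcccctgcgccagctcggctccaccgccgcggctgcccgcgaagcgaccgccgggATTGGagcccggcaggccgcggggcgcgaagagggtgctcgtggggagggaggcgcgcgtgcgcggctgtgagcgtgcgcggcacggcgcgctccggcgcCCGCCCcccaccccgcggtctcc
The Neo1 window held 45 CpG and the Ift46 window 20, against 4 for Alg9, 1 for Treh and a median of 6 over the 32851 promoters of the table. A GC box was present in the Ift46 and Neo1 windows (and in 32.7% of all promoters), a CCAAT box in the Neo1 window (33.8% of all) and a TATA box in the Alg9 window (12.4% of all). Promoters were listed for 304 of the 381 members and for 18 of the 25 members called for NEIL1 loss.

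Neil1-/- was compared with WT to ask what loss of NEIL1 alone was accompanied by. In this comparison 7 members passed (adjusted p under 0.05, here "called"), which is 2.43% of those tested, against 0.200% of all 13982 genes tested. Mpzl2, Fxyd2, Ift46 and Neo1 rose, and Clmp, Cryab and AI593442 fell. In Neil1-/-Neil2-/- against WT, 9 members (3.12%, against 0.322% of all genes) were called: Treh, Fxyd2, Ift46 and Neo1 rose, and Clmp, Sc5d, Alg9, Dnaja4 and Hexa fell. Neil2-/- against WT called 0 members by edgeR's quasi-likelihood test and 0 by DESeq2, with 21 at an unadjusted p under 0.05, while 0.300% of all genes were called. These comparisons share the WT libraries. Some of their calls were lost under other settings of the fit or with a library left out, as given below.

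**Figure D1:**
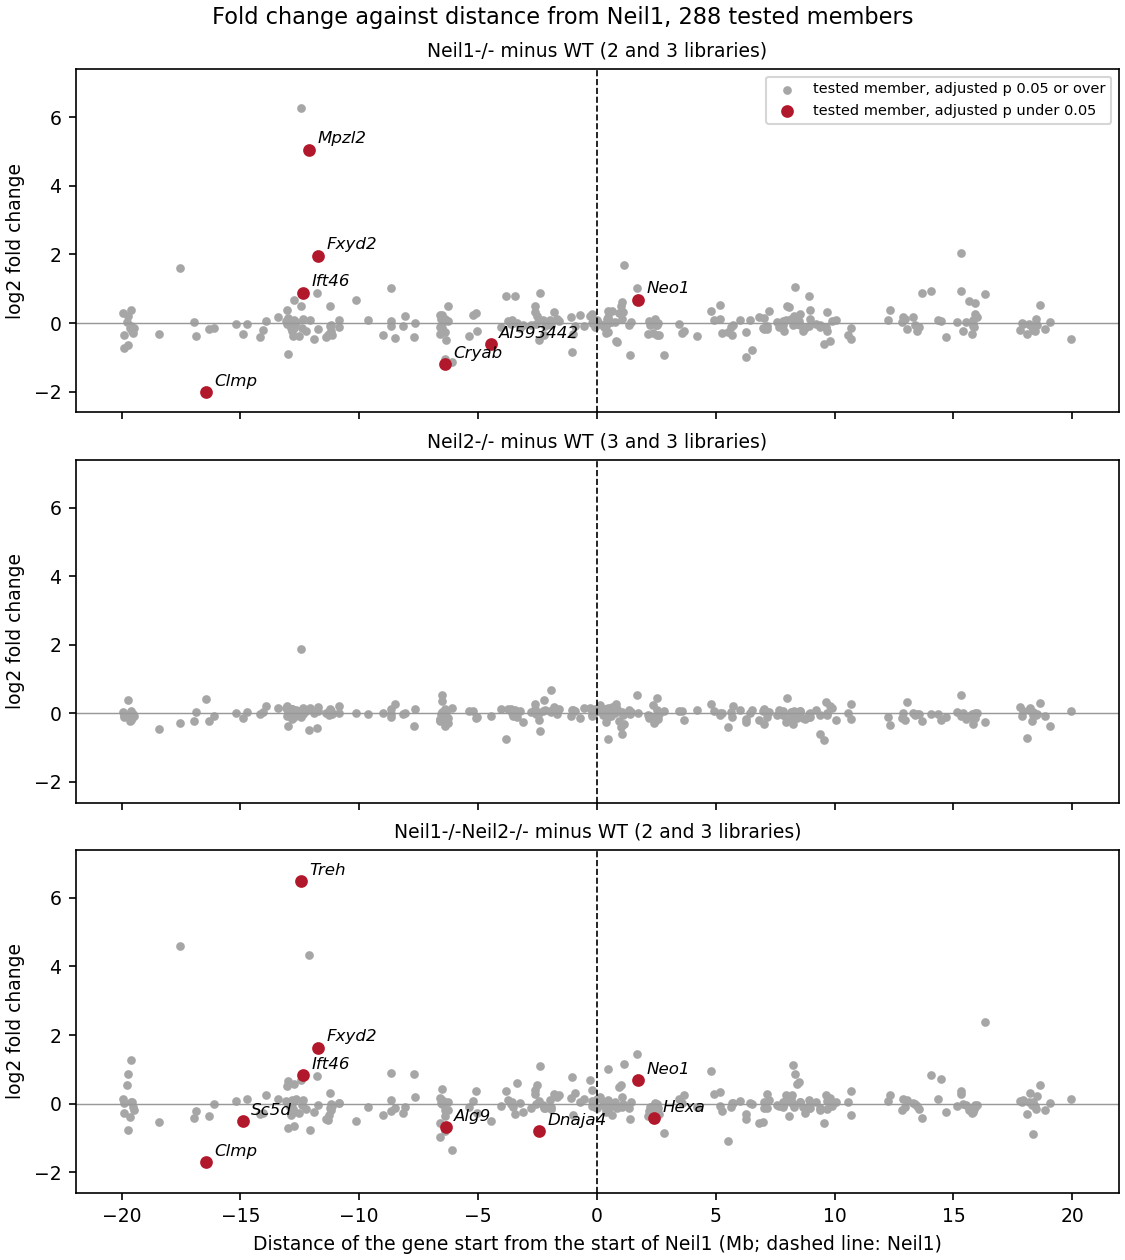
Log2 fold change of the 288 tested members against the distance of the gene's start from that of Neil1 (Mb), for each mutant genotype minus WT; each point is a gene, and red points with names passed the test. Called members lie on the left and just to the right of Neil1 in the panels of both NEIL1-deficient genotypes (7 and 9 members), and the Neil2-/- panel has 0.

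The loss of NEIL1 can also be measured on the NEIL2-deficient background, in libraries that the Neil1-/- against WT comparison does not use. Neil1-/-Neil2-/- against Neil2-/- called 9 members (3.12%, against 0.222% of all genes), 4 higher and 5 lower. Averaged over both backgrounds, NEIL1 loss called 25 members, 8.68% of those tested, against 0.451% of all genes, and 8 of the 25 were higher (0.207% of all genes) and 17 lower (0.243% of all genes). Along the rest of chromosome 9 it called 2 of 488, in the genes within 20 Mb of Neil2 on chromosome 14 it called 2 of 265, and elsewhere 27 of 12861. Among the 24 tested window genes that the rule left out, 7 were called. Over the 288 members, the median absolute log2 fold change was 0.151 (0.0954 over all tested genes), so that most members differed little. Treh and Mpzl2, among the 8 that were higher, had enough counts to be tested only through the NEIL1-deficient libraries. Their direction was therefore largely set by the filter on low counts. The interaction, which asks whether the NEIL1 difference depends on NEIL2, called 0 members by edgeR (20 at an unadjusted p under 0.05; 0 by DESeq2) and 0.0930% of all genes.

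**Figure D2:**
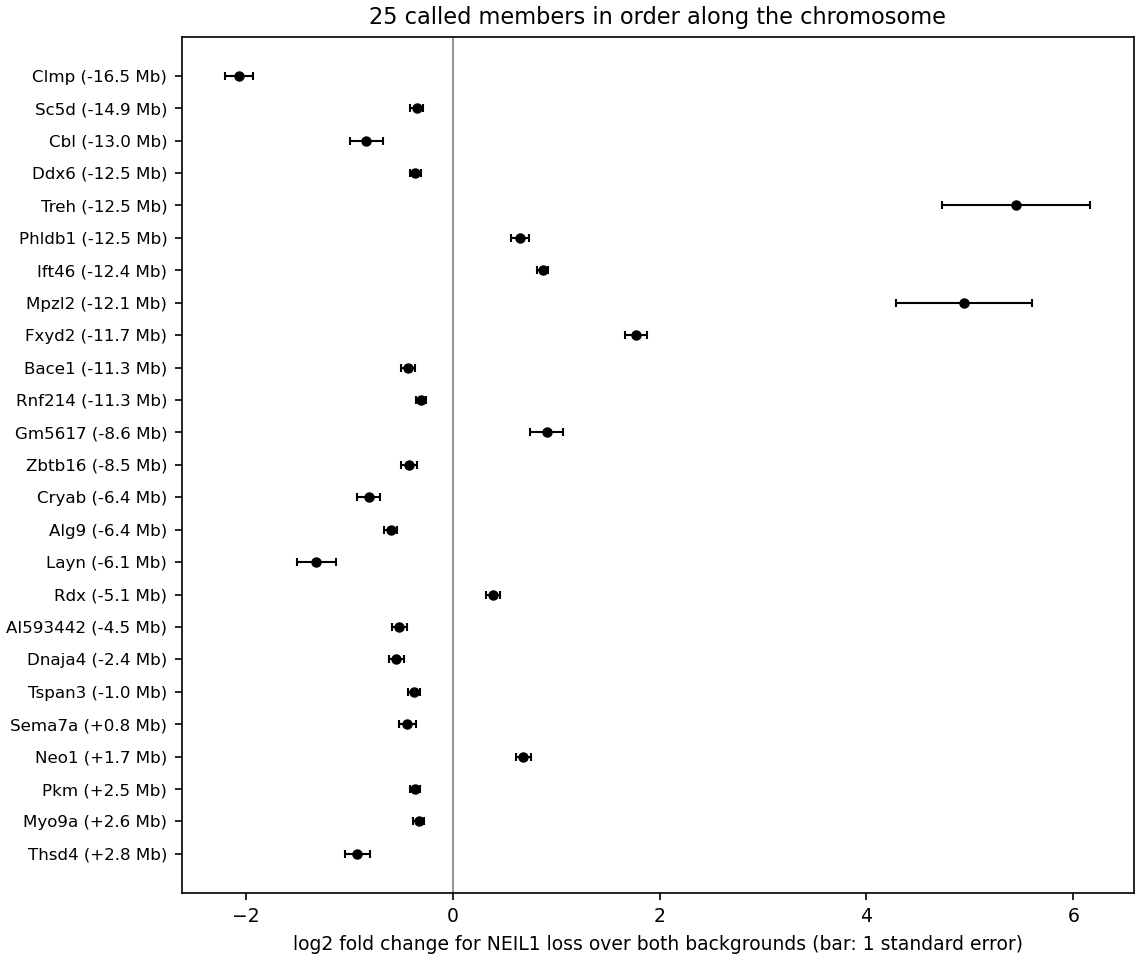
Log2 fold change for NEIL1 loss over both backgrounds (bars, 1 standard error) of the 25 called members in their order along chromosome 9, with the distance from Neil1 beside each name. Most of the 17 members that fell lie within 1 log2 unit of 0; Clmp (-2.07) and Layn (-1.32) do not. The fitted values of Treh and Mpzl2 rest on libraries with almost no counts.

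Among the adhesion and guidance proteins of the set, Clmp and Neo1 were called in every comparison of a NEIL1-deficient genotype with its control. Clmp, an immunoglobulin-type adhesion protein of cell junctions (71566; 40682123 to 40785553, 16.46 Mb below Neil1), had 22.7, 29.0 and 23.5 CPM in WT and 34.3, 26.9 and 39.4 in Neil2-/-. It had 7.05 and 5.37 CPM in Neil1-/- and 6.92 and 8.47 in Neil1-/-Neil2-/-. The 4 NEIL1-deficient libraries lay below all 6 others, and the level fell 4.19-fold (log2 fold change -2.07, SE 0.136, adjusted p = 1.13e-05). Neo1, the receptor neogenin for netrins and repulsive guidance molecules (18007; 58874679 to 59036614, minus strand, 1.732 Mb above), had 49.9, 49.7 and 43.7 CPM in WT and 53.8, 46.0 and 43.7 in Neil2-/-. Its level was 75.5 and 78.3 CPM in Neil1-/- and 81.9 and 71.1 in Neil1-/-Neil2-/-, again without overlap, and rose 1.60-fold (log2 fold change 0.68, SE 0.0729, adjusted p = 0.000943).

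Layn, Thsd4, Sema7a and Mpzl2 stand in no adhesion list used here and are described together for their known roles after their calls were seen. Layn, the hyaluronan receptor layilin (6.088 Mb below), was at 4.07, 3.29 and 4.07 CPM in WT, 3.64, 5.24 and 3.96 in Neil2-/-, 2.00 and 1.46 in Neil1-/- and 1.33 and 1.67 in Neil1-/-Neil2-/-. Thsd4, a fibrillin-binding matrix protein (2.824 Mb above), was at 83.2, 61.3 and 60.7 CPM in WT, 77.6, 67.4 and 68.6 in Neil2-/-, 30.8 and 41.1 in Neil1-/- and 32.2 and 43.2 in Neil1-/-Neil2-/-. For both genes the NEIL1-deficient libraries lay below the rest, with log2 fold changes of -1.32 (SE 0.188, adjusted p = 0.00684) for Layn and -0.92 (SE 0.121, adjusted p = 0.00483) for Thsd4. Sema7a, a membrane-anchored semaphorin and the called member closest to Neil1 (0.797 Mb above), had a log2 fold change of -0.44 (adjusted p = 0.0457), but its libraries overlapped: the Neil1-/-Neil2-/- replicate 2 had 153 CPM and WT replicate 1 had 133. Mpzl2, a homophilic adhesion protein (12.10 Mb below), had 3 counts over the 3 WT libraries and 2 over those of Neil2-/-, against 74 over the 2 of Neil1-/- and 44 over the 2 of Neil1-/-Neil2-/-. It rose by the test (adjusted p = 0.00497), and with so few counts in the controls no fold is given. Mpzl2 was tested only because of its counts in the NEIL1-deficient libraries. Had it been low there as well, it would not have been tested. Of the 20 adhesion and guidance receptors listed (19 tested), 2 were called for NEIL1 loss, beside 25 of all 288 tested members, and the list's median log2 fold change was 0.104, with 0.00237 over all genes. The most abundant of them, Thy1, at 1320 to 1450 CPM in WT, had a log2 fold change of -0.01 (adjusted p = 0.977).

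The called members between 12.47 and 11.74 Mb below Neil1 all rose, but other members that lie among them, such as Arcn1, Tmem25 and Ube4a, were not called. Ube4a, between Ift46 and Mpzl2, had fewer counts without NEIL1. It had 1007 and 986 in Neil1-/- and 1052 and 1030 in Neil1-/-Neil2-/-, against 1194 to 1213 in WT and 1212 to 1294 in Neil2-/-. Ift46, a subunit of the complex that carries cargo into cilia (76568; 44770456 to 44792714), had 44.1, 44.2 and 42.3 CPM in WT, 41.9, 40.01 and 46.4 in Neil2-/-, 79.8 and 80.9 in Neil1-/- and 73.9 and 80.3 in Neil1-/-Neil2-/-. That is a 1.82-fold rise (log2 fold change 0.87, SE 0.0574, adjusted p = 1.13e-05), and its promoter window is the second of the sequences above. Fxyd2, the gamma regulator of the sodium-potassium pump (11936; 45399709 to 45410278), had 9.35, 8.17 and 6.50 CPM in WT, 7.64, 8.49 and 8.85 in Neil2-/-, 30.9 and 31.6 in Neil1-/- and 22.2 and 27.6 in Neil1-/-Neil2-/-, a 3.41-fold rise (log2 fold change 1.77, SE 0.104, adjusted p = 5.67e-06). Treh, the enzyme trehalase, had 0 counts in the WT libraries and 1 in Neil2-/-, and 19 and 22 counts over the Neil1-/- and Neil1-/-Neil2-/- libraries. Against the level that 3 counts over the WT group would give, the Neil1-/- libraries were at least 9.75-fold higher, and those of Neil1-/-Neil2-/- at least 11.3-fold (adjusted p = 0.00828 for NEIL1 loss), a floor that covers counting error only. Treh, like Mpzl2, was tested only because of its counts in the NEIL1-deficient libraries. Phldb1, a cortical protein that binds microtubule-linked complexes, follows Treh in the genome with a gap of 0.003 kb and rose 1.57-fold (log2 fold change 0.65, SE 0.0914, adjusted p = 0.00671), from 17.1 to 20.8 CPM in WT to 25.0 and 27.3 in Neil1-/- and 33.1 and 25.8 in Neil1-/-Neil2-/-. The counting was not stated to use the strand, so that reads near the facing ends of Treh and Phldb1 cannot be told apart.

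**Figure D3:**
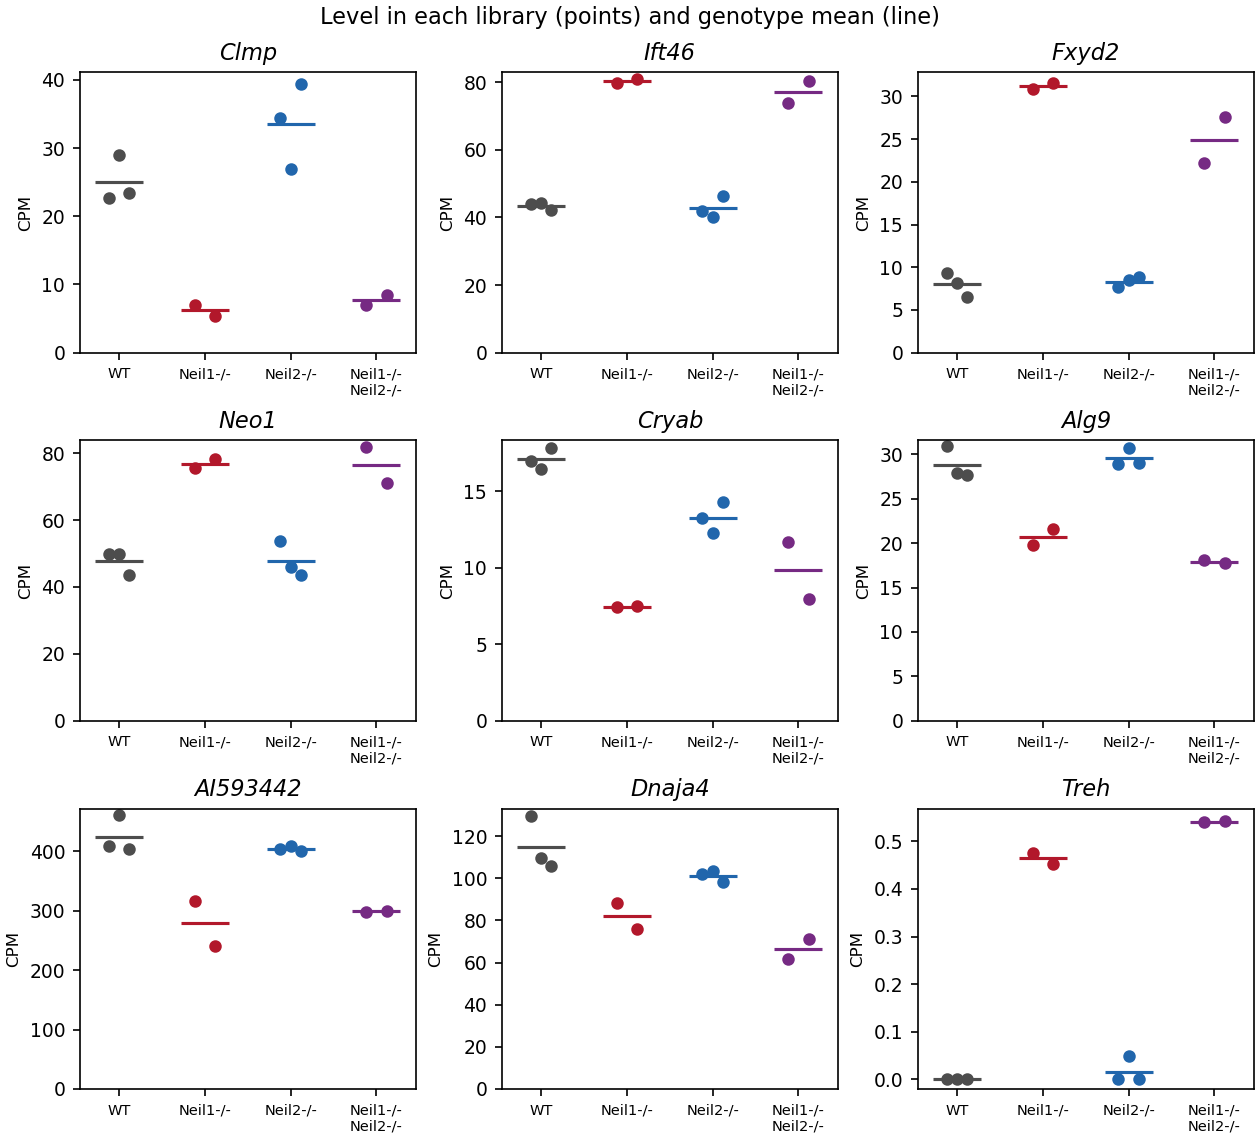
CPM (TMM-scaled, linear axes from 0) of 9 called members in each library, with each genotype's mean as a line; n = 3 WT, 2 Neil1-/-, 3 Neil2-/- and 2 Neil1-/-Neil2-/-. The genes were chosen among those called, and in each panel the NEIL1-deficient libraries stand apart from the others, with Clmp below at 5.37 to 8.47 CPM and Ift46 above at 73.9 to 80.9 CPM.

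Among genes of protein quality control, 4 of 22 tested members of the listed chaperones, ubiquitin and proteasome genes were called for NEIL1 loss, all lower, with a list median of -0.112, beside 25 of all 288 tested members (17 lower). Of the 4, Rnf214 overlaps another called gene, Bace1. Cryab, the small heat shock protein alpha-B crystallin (6.397 Mb below), had 17.0, 16.5 and 17.8 CPM in WT and 13.2, 12.3 and 14.3 in Neil2-/-, against 7.43 and 7.48 in Neil1-/- and 11.7 and 7.98 in Neil1-/-Neil2-/- (log2 fold change -0.81, SE 0.11, adjusted p = 0.00507). Cryab was called in Neil1-/- against WT (log2 fold change -1.20, adjusted p = 0.00648) but not in Neil1-/-Neil2-/- against Neil2-/- (-0.43, adjusted p = 0.339). Its interaction was 0.76 (unadjusted p = 0.00424, adjusted p = 0.71, not called). The Cryab locus overlaps Hspb2 and 2310030G06Rik, whose reads may be shared. Dnaja4, a co-chaperone of the heat shock protein 70 family, had 130, 110 and 106 CPM in WT, 102, 104 and 98.1 in Neil2-/-, 88.3 and 76.1 in Neil1-/- and 61.6 and 71.0 in Neil1-/-Neil2-/- (log2 fold change -0.55, SE 0.0732, adjusted p = 0.00498). Cbl and Rnf214, an E3 ubiquitin ligase and a RING finger protein, fell by 0.83 and 0.31 on the log2 scale (adjusted p = 0.0485 and 0.00945). The most abundant of the list, Hspa8, was at 2405 to 2683 CPM in WT and was not called (log2 fold change -0.17, adjusted p = 0.278). Alg9, a mannosyltransferase that builds the glycan precursor in the endoplasmic reticulum, had 30.9, 27.9 and 27.7 CPM in WT, 28.9, 30.7 and 29.1 in Neil2-/-, 19.8 and 21.5 in Neil1-/- and 18.1 and 17.7 in Neil1-/-Neil2-/-. The 2 groups of NEIL1-deficient libraries lay below all others, a 1.52-fold fall (log2 fold change -0.60, SE 0.0646, adjusted p = 0.000943).

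Genes of metabolism and membrane traffic gave smaller differences. Pkm, the pyruvate kinase of the last step of glycolysis (2.514 Mb above Neil1), had 1210, 1290 and 1350 CPM in WT, 1430, 1330 and 1380 in Neil2-/-, 1020 and 990 in Neil1-/- and 1020 and 1090 in Neil1-/-Neil2-/- (log2 fold change -0.37, SE 0.0487, adjusted p = 0.00483). Pkm was the only 1 of 16 tested members of the energy and intermediary metabolism list called for NEIL1 loss, with a list median of -0.109. The next called members above it were Myo9a, an unconventional myosin (log2 fold change -0.33, adjusted p = 0.0281), and Thsd4, both lower; Gramd2 and Senp8 lie between Pkm and Myo9a and were not called. The 6 libraries with NEIL1 and the 4 without it are given as ranges for the remaining called genes, none of which overlapped. Bace1, the beta-secretase of amyloid precursor processing, was at 58.9 to 70.7 CPM with NEIL1 and 43.5 to 52.1 without (log2 fold change -0.43, adjusted p = 0.0171). Rnf214, which overlaps Bace1 by 5716 bases, was at 125 to 136 CPM with NEIL1 and 104 to 110 without. Both fell, and reads in the overlap cannot be assigned to either. Sc5d, a sterol desaturase of cholesterol synthesis, fell (41.4 to 47.7 CPM with NEIL1 and 30.1 to 37.97 without; log2 fold change -0.35, adjusted p = 0.0365). Ddx6, an RNA helicase of processing bodies, fell (128 to 144 CPM with NEIL1 and 95.9 to 113 without; -0.36, adjusted p = 0.00752). Tspan3, a tetraspanin membrane protein, fell (324 to 386 CPM with NEIL1 and 266 to 275 without; -0.37, adjusted p = 0.011). These genes lie apart from each other, at 14.89, 12.54 and 1.007 Mb below Neil1. Zbtb16, a zinc finger transcription repressor, fell (56.6 to 82.9 CPM with NEIL1 and 41.7 to 55.6 without; -0.42, adjusted p = 0.0389). Rdx, radixin, which links actin to the membrane, rose (32.7 to 41.7 CPM with NEIL1 and 47.7 to 52.2 without; log2 fold change 0.39, adjusted p = 0.0353). Gm5617, for which no role is given here, rose (2.13 to 3.08 CPM with NEIL1 and 4.17 to 5.42 without; 0.91, adjusted p = 0.0302), and the ranges of both genes lay apart. AI593442 had 408, 461 and 403 CPM in WT, 403, 409 and 401 in Neil2-/-, 316 and 241 in Neil1-/- and 298 and 300.1 in Neil1-/-Neil2-/- (log2 fold change -0.52, SE 0.0718, adjusted p = 0.00605). It passed in Neil1-/- against WT (adjusted p = 0.0419), a call lost under 11 of 15 alternatives (each library left out but Neil1-/- replicate 1 among them) with an adjusted p of up to 0.246, and not in Neil1-/-Neil2-/- against Neil2-/- (log2 fold change -0.43, adjusted p = 0.144). Phldb1 stands in the list of transcription and chromatin genes, of which 2 of 20 tested were called (the other was Zbtb16), although it is known as a cytoskeletal protein. In the vesicle list Bace1 was called (1 of 21), among the kinases, phosphatases and small G-protein regulators Rdx and Myo9a (2 of 18), among the ion transport genes Fxyd2 (1 of 8), in the cilium list Ift46 (1 of 5), and in the apolipoprotein cluster none (0 of 4; 1 at an unadjusted p under 0.05).

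The most abundant members of these lists were mostly not called. Nptn, a synaptic immunoglobulin-type protein, Sorl1, a sorting receptor, Idh3a, a subunit of isocitrate dehydrogenase, and Map2k1, a kinase of the MAP kinase cascade, had log2 fold changes of 0.02, 0.02, -0.02 and 0.03 for NEIL1 loss, with adjusted p of 0.914, 0.932, 0.849 and 0.827. Bbs4, of the ciliary BBSome, had 0.00, Zpr1 0.04, Ubl7 0.03, Nedd4, an E3 ubiquitin ligase, 0.08, Polr2m 0.13 and Sik3, a kinase encoded beside the apolipoprotein genes, -0.20, and none of these passed the test. Members that missed the threshold were not always flat. Slc37a4, the glucose 6-phosphate transporter, was at 19.96 to 21.9 CPM in WT and 19.62 to 24.7 in Neil2-/-, and at 39.3 and 25.95 in Neil1-/- and 26.7 and 34.7 in Neil1-/-Neil2-/- (log2 fold change 0.59, adjusted p = 0.0627). Its libraries with and without NEIL1 did not overlap. Fxyd6, a relative of Fxyd2 that regulates the same pump, was at 14.97 to 44.1 CPM with NEIL1 and 23.5 to 88.7 without, with ranges that overlapped (log2 fold change 1.05, adjusted p = 0.218).

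The position of the 25 called members was uneven. They lay from 16.46 Mb below Neil1 (Clmp) to 2.824 Mb above it (Thsd4), with 20 below and 5 above. Below Neil1, 20 of 139 tested members were called (14.4%), and above it 5 of 149 (3.36%). At 5 to 20 Mb above, 0 of 103 tested were called by edgeR (18 at an unadjusted p under 0.05, and 2 by DESeq2). Beyond 16.46 Mb below lie 16 tested members. Clmp, the farthest called member, sets this limit, so 0 edgeR calls there were fixed in advance. Before adjustment, 6 of these 16 (37.5%) lay under 0.05, against 17.5% of the 103 and 14.1% of all tested genes. By DESeq2, 3 of the 16 and 2 of the 103 passed, beside 250 of all 13982 tested genes. The stretch of 16 was cut after the calls were seen, so its shares are not read as a difference between the sides. None of the 8 members nearest Neil1 was called: Snupn, Ptpn9, Sin3a and Man2c1 on the lower side and Commd4, 1700017B05Rik, Ppcdc and Scamp5 on the upper had log2 fold changes from -0.17 (Sin3a) to 0.07 (Man2c1). The closest called member was 0.797 Mb away.

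**Figure D4:**
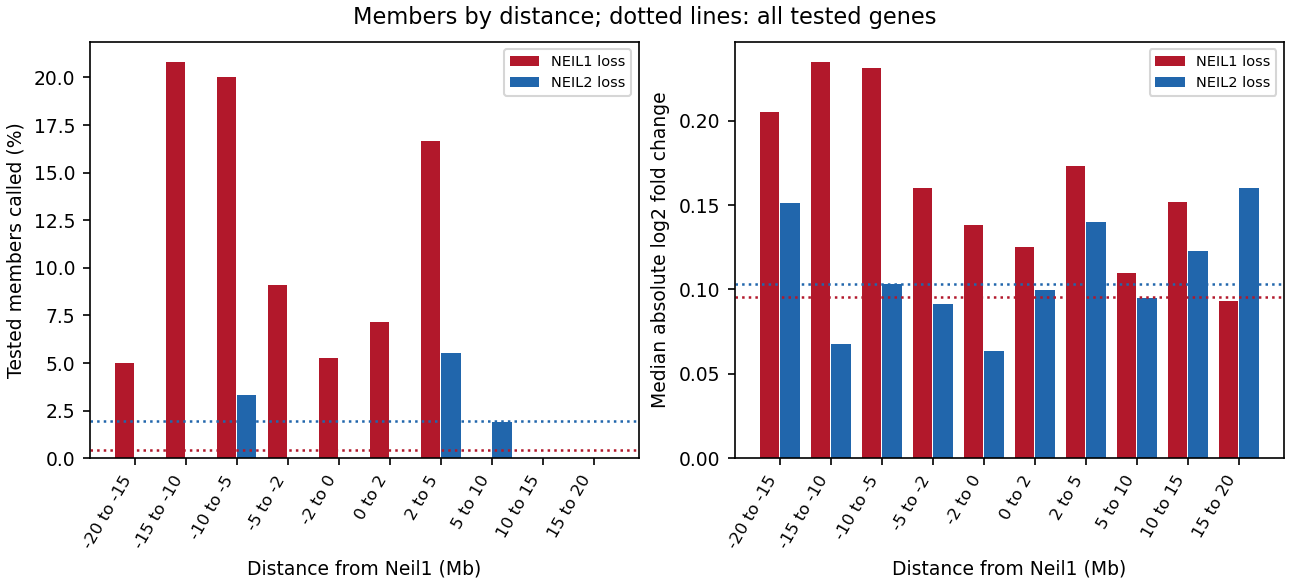
Left, percent of tested members called, and right, median absolute log2 fold change, by distance from Neil1 in Mb (negative is the lower coordinate side), for NEIL1 loss in red and NEIL2 loss in blue, with dotted lines for all 13982 tested genes. The called shares for NEIL1 loss are highest from 15 to 5 Mb below, and are 0 beyond 5 Mb above.

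Neil1-/- against WT and Neil1-/-Neil2-/- against Neil2-/- share no library, so their fold changes can be set side by side. Over the 288 members the log2 fold changes had a Pearson r of 0.754 and a Spearman coefficient of 0.545, and 200 (69.4%) had the same sign. Over the 12861 other genes the Pearson r was 0.132, the Spearman coefficient 0.22 and the share of the same sign 59.3%. Along the rest of chromosome 9 they were 0.261, 0.321 and 61.7%. The Pearson value of the members includes Treh (6.28 and 4.62) and Mpzl2 (5.06 and 4.83), whose fits rest on few control counts. How far these genes raise it was not tested. All of these points come from the same libraries within a comparison, and genes are not replicates. Clmp, Ift46, Fxyd2 and Neo1 were called in both.

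**Figure D5:**
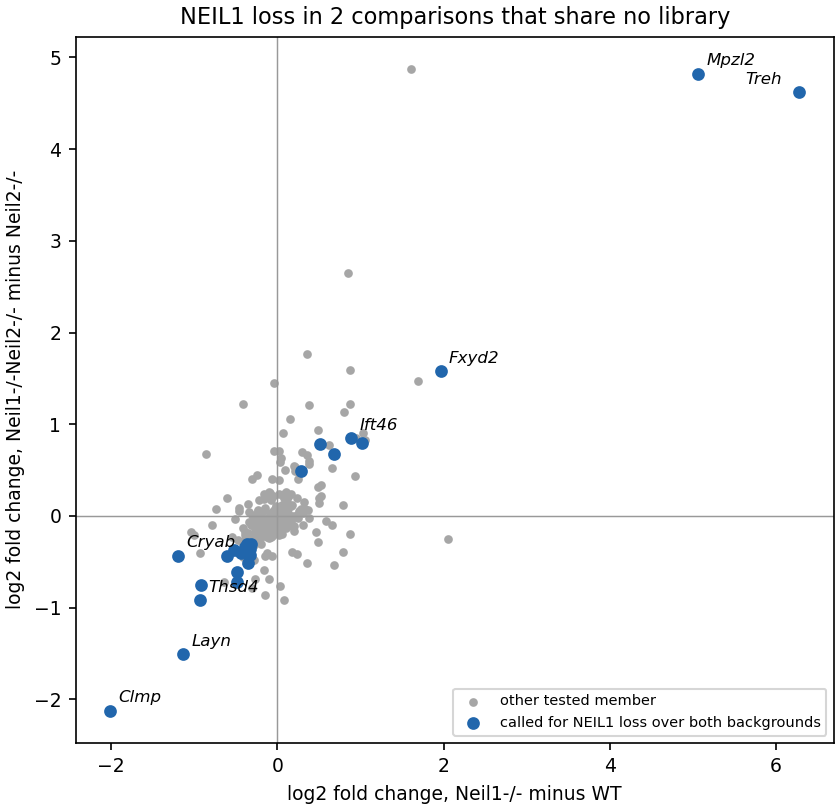
Log2 fold change of Neil1-/- minus WT (x) against Neil1-/-Neil2-/- minus Neil2-/- (y) for 288 members; blue points were called for NEIL1 loss over both backgrounds. The blue points lie in the lower left and upper right parts, as choosing them by the mean of both axes largely fixes, with Fxyd2 at 1.96 and 1.58 and Clmp at -2.01 and -2.12.

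Library values were also compared with no test, as whether the 4 NEIL1-deficient libraries lie wholly above or below the other 6. That held for 38 of the 288 members (13.2%; 11 above and 27 below), against 2.35% of all genes, 2.87% along the rest of chromosome 9 and 2.05% elsewhere. Of the 38, 24 were among the 25 called for NEIL1 loss and 14 were not. The count comes from the same libraries and the same split as those calls, so it adds no separate support.

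The same genes were read for NEIL2 loss. Over both backgrounds it called 3 members (1.04%, below the 1.97% of all genes): Nkapd1 (log2 fold change 0.49) and Lactb (0.44), a mitochondrial serine beta-lactamase-like protein, rose, and Hexa, the alpha chain of lysosomal hexosaminidase (-0.37), fell, with adjusted p of 0.0106, 0.0144 and 0.00538. In Neil1-/-Neil2-/- against Neil1-/-, 2 members were called (0.458% of all genes), Lactb higher and Hexa lower. Lactb stood at 23.65, 22.91 and 26.55 CPM in WT, 26.42, 26.72 and 31.06 in Neil2-/-, 18.2 and 16.0 in Neil1-/- and 26.6 and 28.4 in Neil1-/-Neil2-/-. It was not called in Neil2-/- against WT (0.20, adjusted p = 0.541) or Neil1-/-Neil2-/- against WT (0.17, adjusted p = 0.586). Its interaction was 0.48 (unadjusted p = 0.00885, adjusted p = 0.799, not called). In Neil1-/-Neil2-/- against Neil1-/-, Lactb lost its call under 6 and Hexa under 9 of 15 alternatives. The genes within 20 Mb of Neil2 were called for NEIL2 loss in 37 of 265 tested.

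Libraries decided part of these counts. Leaving out Neil1-/-Neil2-/- replicate 1, which had the highest oligodendrocyte markers, or replicate 2 leaves 1 library in that group. The calls in Neil1-/-Neil2-/- against Neil2-/- then moved over all genes as well as over members, so their number is not read as a result about the members. Over all alternatives the log2 fold change in that comparison was -2.28 to -1.98 for Clmp and 0.572 to 0.773 for Neo1. The calls of Neil1-/- against WT went from 7 to 4 without WT replicate 2 or without WT replicate 3. Over all genes they went from 28 to 19 and 23. Leaving out any other library lowered both counts as well, also a library outside this comparison. Clmp, Ift46 and Fxyd2 kept their call in each comparison under every alternative tried, and for NEIL1 loss so did Neo1, Alg9, Cryab, Layn, Thsd4, Pkm, AI593442, Dnaja4 and Mpzl2. The other 13 of the 25 lost it under at least 1 alternative, Sc5d under 10 and Zbtb16 under 9 of 14, Sema7a and Rdx under 8, Cbl and Myo9a under 7, Gm5617 under 6, Bace1 under 3, Tspan3 and Rnf214 under 2, and Ddx6, Phldb1 and Treh under 1; none changed direction. The highest adjusted p among these alternatives was 0.147 for Sc5d, 0.164 for Zbtb16, 0.247 for Sema7a, 0.181 for Rdx, 0.233 for Cbl, 0.127 for Myo9a, 0.118 for Gm5617, 0.0747 for Bace1, 0.0859 for Tspan3 and 0.0704 for Rnf214. It was 0.0517 for Ddx6, without Neil1-/- replicate 2. For NEIL1 loss, Phldb1 (0.0559) and Treh (0.0802) kept the call whichever library was left out. Calls against WT were less stable. In Neil1-/-Neil2-/- against WT, Treh lost its call under 12 of 15 alternatives, every library omission among them. Hexa lost it there under 11, Sc5d under 9, Neo1 under 2, and Alg9 and Dnaja4 under 1. In Neil1-/- against WT, Mpzl2 and AI593442 lost it under 11, Neo1 under 5 and Cryab under 2.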

How the data were processed

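RNA of microdissected CA1 pyramidal layer was sequenced as paired reads of 100 bases on a BGISEQ-500. Estimated counts, as deposited by the authors, were made by their sequencing provider with RSEM on Bowtie2 alignments to GRCm38 (HISAT, StringTie and GATK are also named; versions are not given in the sources used here). Of the values, 87.8% were whole, and all were rounded. Genes were placed by RefSeq positions on GRCm38 (18429 of 18558 matched). Counts were tested with edgeR 4.0.16 in R 4.3.3 (low genes removed by filterByExpr at 10 counts, TMM scaling, glmQLFit with 1 mean per genotype over the 10 libraries whose title and label agree, glmQLFTest, 2-sided), adjusted by Benjamini-Hochberg over 13982 genes at 0.05. CPM are scaled by TMM. With 19618923 to 21970180 counts a library, low genes have wide counting errors. Alternatives were DESeq2 1.42.0, its size factors, no filter, a replicate block, only the groups compared, and each library left out. Fold changes were tested on simulated counts first. Named were all members called in any comparison, the 4 nearest tested on each side and the 2 most abundant of each role list, apart from a result that is not reported here. The members and lists were chosen with earlier results of these data known. The 2 libraries with conflicting labels were not tested.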

Additional observations from a re-analysis of the deposited data

Results flagged for a closer look

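The 2 libraries that no comparison used, each with a title of one NEIL1-deficient genotype and a label of the other, lay outside the range of the 6 libraries with NEIL1 in the called direction for 22 of the 25 members called for NEIL1 loss: above it for all 8 that rose and below it for 14 of the 17 that fell. The 8 that rose were above the WT and Neil2-/- libraries, with a lower value of the 2 unassigned libraries of 0.297 CPM for Treh, 25.0 for Phldb1, 75.5 for Ift46, 0.495 for Mpzl2, 22.3 for Fxyd2, 3.25 for Gm5617, 46.9 for Rdx and 77.3 for Neo1. The highest values with NEIL1 were 0.05, 20.8, 46.4, 0.145, 9.35, 3.08, 41.7 and 53.8 CPM. For Zbtb16, Sema7a and Myo9a at least 1 of the 2 lay within that range. How many other members or other genes had both libraries outside that range was not counted, so no share over all genes stands beside the 22. Both titles and both labels name a NEIL1-deficient genotype, so these members do not bear on which of them is right. Neil2 was at 0.148 CPM in the library whose title names Neil1-/- and at 0 in the one whose title names Neil1-/-Neil2-/-, and all 5 libraries labelled as NEIL2-deficient in the comparisons had 0 counts; these values go with the titles, rest on very few counts and were not used to assign a group.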

How the results depend on the processing

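The replicate numbers did not pair the samples: of 13 same-numbered pairs 1 correlated over 0.1 (range -0.165 to 0.186), and 4 libraries correlated best with their own number. With the replicate block, Neil1-/-Neil2-/- against Neil2-/- called 5 members in place of 9 and Neil1-/-Neil2-/- against Neil1-/- 1 in place of 2; NEIL1 loss called 19. The counts by DESeq2 follow with those over all genes in brackets, where 288 of the 13982 genes tested are members. DESeq2 called 27 (86) in Neil1-/- against WT, 25 (186) in Neil1-/-Neil2-/- against WT, 19 (149) against Neil2-/- and 7 (278) against Neil1-/-. For NEIL1 loss it called 38 (250), with 2 members at 5 to 20 Mb above Neil1, and for NEIL2 loss 12 (622). No filter on low counts called 20 (135), 17 (151) and 5 (150) in the 3 double-knockout comparisons in that order and 6 (439) for NEIL2 loss. At 5 to 20 Mb above it called 1 member. Fitting only the 2 groups called 0 in Neil1-/-Neil2-/- against Neil1-/-. Over all genes NEIL1 loss called 63, 250 by DESeq2 and 154 without the filter. Leaving out each library in turn gave 4 to 5 (Neil1-/- against WT), 4 to 11 (Neil1-/-Neil2-/- against WT), 3 to 14 (against Neil2-/-), 0 to 3 (against Neil1-/-), 16 to 24 (NEIL1 loss), 2 to 6 (NEIL2 loss), 0 to 1 (interaction and the stretch above) and an r of 0.658 to 0.769. Of 797 single-gene values, 610 kept the call, 187 lost it and 0 reversed; the cause was not tested. The lowest and highest leave-one-out counts of Neil1-/-Neil2-/- against WT and against Neil2-/- come from fits with 1 library in that group. Calls over all genes moved in those fits as well. Depth limits Treh and Mpzl2.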
